A study of Arabidopsis thaliana with 12 samples.

Results

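The genes described here are 5 members of the expansin superfamily and 1 xyloglucan endotransglucosylase/hydrolase (XTH) gene of Arabidopsis thaliana: EXLA1 (AT3G45970), EXLA2 (AT4G38400), EXLA3 (AT3G45960), EXPA4 (AT2G39700), EXPA8 (AT2G40610) and XTH33 (AT1G10550). They were taken by symbol from the probe annotation, each with 1 probe set that is assigned to a single gene, out of 13513 single-gene probe sets and 22746 probe sets tested. The 6 were selected on their log2 signals in all 4 groups of the study, so their levels, differences and calls below are descriptions and carry no p-value. All seedlings were harvested at 14 days and measured as whole seedlings on 1-colour Affymetrix arrays, 3 biological replicates per group. The groups were xrn3-8 after cordycepin (60 min at 150 mg/l), xrn3-8 before cordycepin (0 min), Col-0 after cordycepin and Col-0 before cordycepin. Col-0 is the wild type, and xrn3-8 is a mutant allele of XRN3, a nuclear exoribonuclease that degrades RNA still attached to RNA polymerase after transcript cleavage; the mutant is a single allele. XRN3 is not among the named single-gene probe sets, and its level was not analysed here. Cordycepin is an adenosine analogue that stops RNA chains from being extended. There was no mock-treated group at 60 min among the samples, so the drug, the time and the handling cannot be told apart.

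Plant cells grow by turgor against a wall of cellulose, xyloglucan and pectin, and the wall has to yield for the cell to enlarge. Alpha-expansins such as EXPA4 and EXPA8 loosen walls at acid pH without hydrolysing them. Expansin-like A proteins (EXLA1, EXLA2 and EXLA3) share the domains of expansins, but a wall-loosening activity has not been established for them, so the term wall-loosening is used here for the family and not as a property of each member. XTH enzymes cleave xyloglucan chains and rejoin their ends, and XTH33 is an unusual member with a predicted membrane anchor.

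The arrays within a group correlated at 0.995 to 0.998, and no library stood apart. The deposited log2 signals had a lower quartile of 2.98 to 3.1 and a median of 4.63 to 4.87 per array. The seedling label was checked on the markers with a named probe set, which were 2 of 5 leaf, 2 of 9 root and 1 of 3 seed genes. The leaf genes RCA (12.73 to 13.08) and LHCB4.2 (10.43 to 12.02) gave high signals on all 12 arrays, whereas the root hair expansins EXPA7 (3.12 to 3.8) and EXPA18 (3.65 to 4.04) lay just above the lower quartile. The seed gene LEA4-5 averaged 5.53 in xrn3-8 after cordycepin, 4.91 in xrn3-8 before it, 4.87 in Col-0 after it and 4.37 in Col-0 before it. LHCB4.2 averaged 11.29 in xrn3-8 after cordycepin, 11.97 in xrn3-8 before it, 10.53 in Col-0 after it and 11.80 in Col-0 before it, and the part of either gene's tissue in the results below was not tested. The flower markers have no named probe set and were not analysed here. The signal is that of a whole seedling, in which fewer cells of a type and less RNA per cell cannot be told apart.

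A difference was called where limma gave an adjusted p under 0.05 (Benjamini-Hochberg over 22746 probe sets, two-sided). All 6 genes were called in both comparisons over time, where 40.4% of all probe sets were called in xrn3-8 and 46.3% in Col-0. The 3 EXLA genes and EXPA8 were lower after cordycepin in both genotypes. EXPA4 was lower after cordycepin in xrn3-8 but higher in Col-0, and XTH33 was the reverse, higher in xrn3-8 and lower in Col-0. EXLA1 and EXLA2 kept more of their signal in xrn3-8 than in Col-0 and EXPA8 kept less, whereas this difference was not called for EXLA3. Differences of log2 signal are given as after minus before, or xrn3-8 minus Col-0, with the SE of the fit (n = 3 arrays per group). Percentages of signal left, and their confidence intervals, hold for the deposited scale only. The intervals leave out the choice of scaling.

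The numbers of the 6 genes called stand beside the shares of all probe sets called, and nothing is read from them, since these comparisons chose the genes. Between the genotypes after cordycepin, 3 were higher and 2 lower in xrn3-8, against 16.6% and 15.6% of all probe sets (32.2% either way). Before cordycepin 2 were higher and 2 lower, against 14.3% and 17.6% of all probe sets (31.9% either way). Over time, 1 was higher and 5 were lower in each genotype. Of all probe sets, 24.5% were higher and 15.9% lower over time in xrn3-8, and 26.3% were higher and 20.1% lower in Col-0. For the difference between the changes, 3 were higher and 2 lower, against 5.08% and 2.97% of all probe sets (8.05% either way). The arrays of the groups compared did not overlap for 5 of the 6 genes between the genotypes after cordycepin (40.3% of all probe sets) and for 5 before it (44.1%). Over time they did not overlap for 6 of the 6 in xrn3-8 (49.2% of all probe sets) and in Col-0 (53.7%). The median log2 difference of the 6 over time was -0.975 in xrn3-8 and -1.12 in Col-0, against 0.09 and 0.07 over all probe sets. The comparisons share arrays, so they are not independent of each other.

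**Figure D1:**
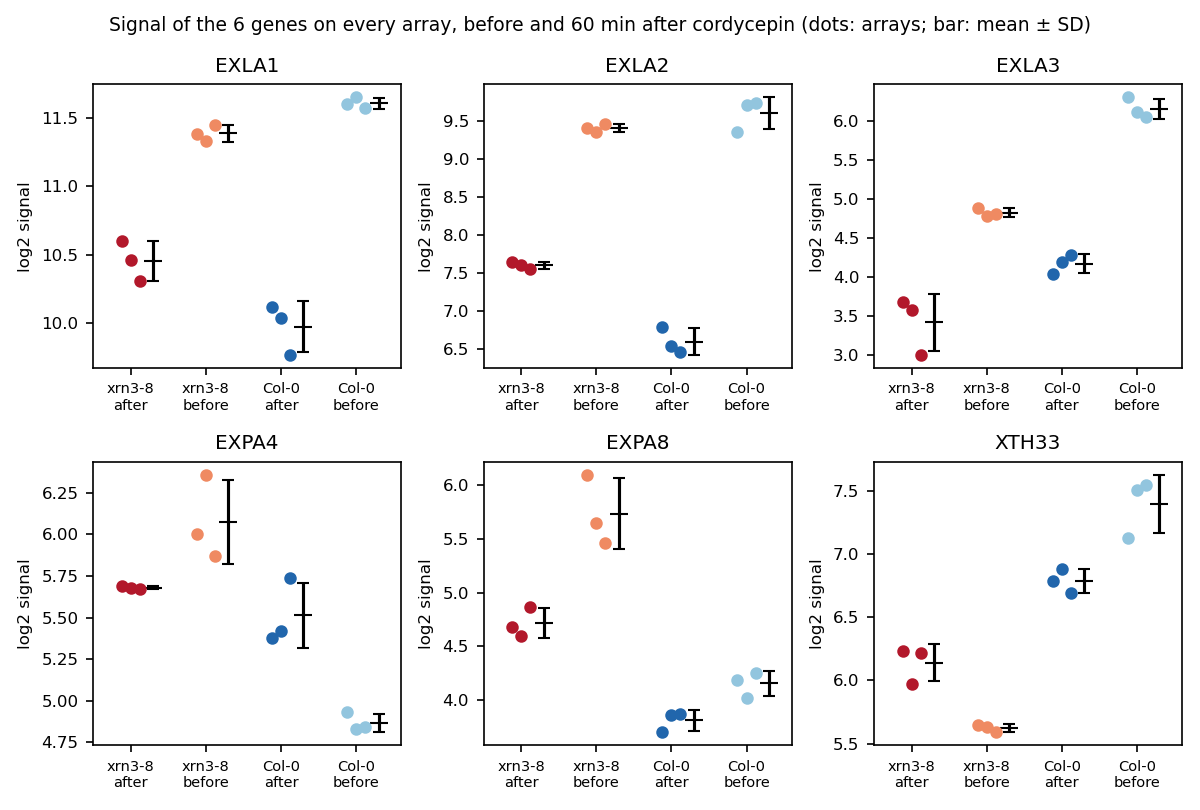
Log2 signal of each gene on each of the 12 arrays, with the mean and SD of each group of 3 beside the dots, on a separate vertical scale for each gene. For EXLA2 the 2 groups before cordycepin overlap near 9.5, while after it the xrn3-8 arrays (7.55 to 7.64) lie above the Col-0 arrays (6.45 to 6.79).

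EXLA2, known from mutant work as a gene that alters resistance to a necrotrophic fungus, had the largest fall of the 6. Its log2 signals were 7.64, 7.60 and 7.55 in xrn3-8 after cordycepin, against 9.41, 9.36 and 9.46 in xrn3-8 before it. In Col-0 they were 6.79, 6.54 and 6.45 after cordycepin, against 9.36, 9.71 and 9.74 before it. The arrays after cordycepin lay below those before it in both genotypes, and the xrn3-8 arrays lay above the Col-0 arrays only after cordycepin, with overlap before it. The log2 difference was -1.81 ± 0.11 in xrn3-8 and -3.01 ± 0.11 in Col-0, which left 28.5% (95% confidence interval 24.4 to 33.2%) of the starting signal in xrn3-8 and 12.4% (10.6 to 14.5%) in Col-0. In Col-0 this fall ranked 54 from the bottom of the 22746 probe sets. The change in xrn3-8 minus that in Col-0 was 1.20 ± 0.15, rank 30 from the top. Between the genotypes, EXLA2 was 2.0-fold higher in xrn3-8 after cordycepin (1.0 ± 0.11). Before cordycepin the difference was -0.19 ± 0.11 and not called, although it was called at -0.315 without replicate 1 of Col-0 before cordycepin.

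EXLA1 had the same order of levels as EXLA2. Its log2 signals were 10.60, 10.46 and 10.31 in xrn3-8 after cordycepin, against 11.38, 11.33 and 11.45 before it. In Col-0 they were 10.12, 10.04 and 9.77 after cordycepin, against 11.60, 11.65 and 11.57 before it. No 2 groups adjacent in level overlapped: Col-0 before cordycepin was highest, then xrn3-8 before it, then xrn3-8 after it, and Col-0 after it was lowest. The log2 difference was -0.93 ± 0.10 in xrn3-8 and -1.63 ± 0.10 in Col-0, leaving 52.5% (45.5 to 60.6%) of the signal in xrn3-8 and 32.3% (28.0 to 37.3%) in Col-0. The changes differed by 0.70 ± 0.14, which was called, but not with centring on hybridization controls (0.63). EXLA1 was higher in xrn3-8 after cordycepin (0.48 ± 0.10), whereas before it the difference of -0.22 ± 0.10 was not called. That difference was called with a signal-dependent prior variance, with array weights (-0.23) and in a fit of the 2 groups alone.

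EXLA3 lies beside EXLA1 on chromosome 3, with a tRNA gene between them in the TAIR10.1 gene order, but its levels were ordered by genotype as well as by cordycepin. Its log2 signals were 3.68, 3.58 and 3.0 in xrn3-8 after cordycepin, against 4.89, 4.78 and 4.81 before it. In Col-0 they were 4.04, 4.19 and 4.28 after cordycepin, against 6.31, 6.12 and 6.06 before it. No 2 groups overlapped, and xrn3-8 lay below Col-0 at both times. The log2 difference was -1.41 ± 0.14 in xrn3-8 and -1.99 ± 0.14 in Col-0, leaving 37.7% (30.9 to 46.1%) of the signal in xrn3-8 and 25.1% (20.5 to 30.7%) in Col-0. The lowest array of xrn3-8 after cordycepin, at 3.0, was at the level of the lower quartile of all probe sets. The difference between the changes, 0.59 ± 0.19, was not called. It was called with array weights (0.67) and without replicate 3 of xrn3-8 after cordycepin (0.80). In xrn3-8, EXLA3 stood at 59.5% of its Col-0 signal after cordycepin (-0.75 ± 0.14) and at 39.6% before it (-1.34 ± 0.14). EXLA1, its neighbour, stood at 85.9% of its Col-0 signal before cordycepin.

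EXPA8 was higher in xrn3-8 than in Col-0 at both times. The log2 signals of EXPA8 were 4.68, 4.60 and 4.87 in xrn3-8 after cordycepin, against 6.10, 5.65 and 5.46 before it. In Col-0 they were 3.70, 3.86 and 3.87 after cordycepin, against 4.19, 4.02 and 4.25 before it. The arrays of xrn3-8 lay above all Col-0 arrays at both times. Relative to Col-0, EXPA8 was 1.87-fold higher in xrn3-8 after cordycepin (0.91 ± 0.13) and 3.0-fold higher before it (1.58 ± 0.13). After cordycepin, 49.3% (40.7 to 59.8%) of the signal was left in xrn3-8 (-1.02 ± 0.13) and 78.8% (65.0 to 95.5%) in Col-0 (-0.34 ± 0.13). The Col-0 signal started low, at a mean of 4.15 before cordycepin and 3.81 after it, and had less room to fall than that of xrn3-8. The part of this low level in the difference between the genotypes was not tested.

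The small fall of EXPA8 in Col-0 and the difference between its changes (-0.68 ± 0.18) were called, but not under all alternatives. The fall in Col-0 was -0.32 and not called with array weights, and -0.24 and not called after quantile normalization, while with centring on housekeeping genes it was -0.755 and called. It was also not called without replicate 1 (-0.29), 2 (-0.37) or 3 (-0.37) of Col-0 after cordycepin, or without replicate 1 (-0.325) or 3 (-0.295) of Col-0 before it. The difference between the changes was not called without replicate 1 (-0.66) or 2 (-0.62) of xrn3-8 after cordycepin or replicate 1 (-0.495) or 2 (-0.72) of xrn3-8 before it. The same held without replicate 2 (-0.65) or 3 (-0.65) of Col-0 after cordycepin and replicate 1 (-0.695) or 2 (-0.61) of Col-0 before it. The direction was the same in each case.

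EXPA4, the other alpha-expansin, was also higher in xrn3-8 before cordycepin, but the genotypes overlapped after it. Its log2 signals were 5.69, 5.68 and 5.67 in xrn3-8 after cordycepin, against 6.0, 6.36 and 5.87 before it. In Col-0 they were 5.38, 5.42 and 5.74 after cordycepin, against 4.93, 4.83 and 4.84 before it. The 2 groups after cordycepin overlapped, with the xrn3-8 arrays within the range of the Col-0 arrays, while before it the genotypes were apart. EXPA4 was lower after cordycepin in xrn3-8 (-0.40 ± 0.12, 76.0% of the starting signal) and higher in Col-0 (0.65 ± 0.12, 157%). The difference between these changes was -1.04 ± 0.16, rank 102 from the bottom of all probe sets. The genotype difference was 0.17 ± 0.12 after cordycepin, not called, with a 95% confidence interval of -0.08 to 0.41, and 1.21 ± 0.12 before it, or 2.31-fold. The fall in xrn3-8 was not called without replicate 2 of xrn3-8 before cordycepin (-0.255), and the rise in Col-0 not with centring on housekeeping genes (0.235).

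XTH33 was lower in xrn3-8 at both times, and the gap narrowed after cordycepin. Its log2 signals were 6.23, 5.97 and 6.22 in xrn3-8 after cordycepin, against 5.65, 5.63 and 5.59 before it. In Col-0 they were 6.79, 6.88 and 6.69 after cordycepin, against 7.13, 7.51 and 7.55 before it. None of the 4 groups overlapped, and they were ordered from Col-0 before cordycepin through Col-0 after it and xrn3-8 after it to xrn3-8 before it. In xrn3-8 the gene stood at 63.9% of its Col-0 signal after cordycepin (-0.65 ± 0.11) and at 29.3% before it (-1.77 ± 0.11). It was higher after cordycepin in xrn3-8 (0.52 ± 0.11) and lower in Col-0 (-0.61 ± 0.11). The difference between the changes was 1.13 ± 0.15, rank 41 from the top. The rise in xrn3-8 depended on the scaling: it was 0.25 with centring on hybridization controls, 0.03 on Bacillus subtilis controls and 0.08 on housekeeping genes, and in none of these was it called.

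**Figure D2:**
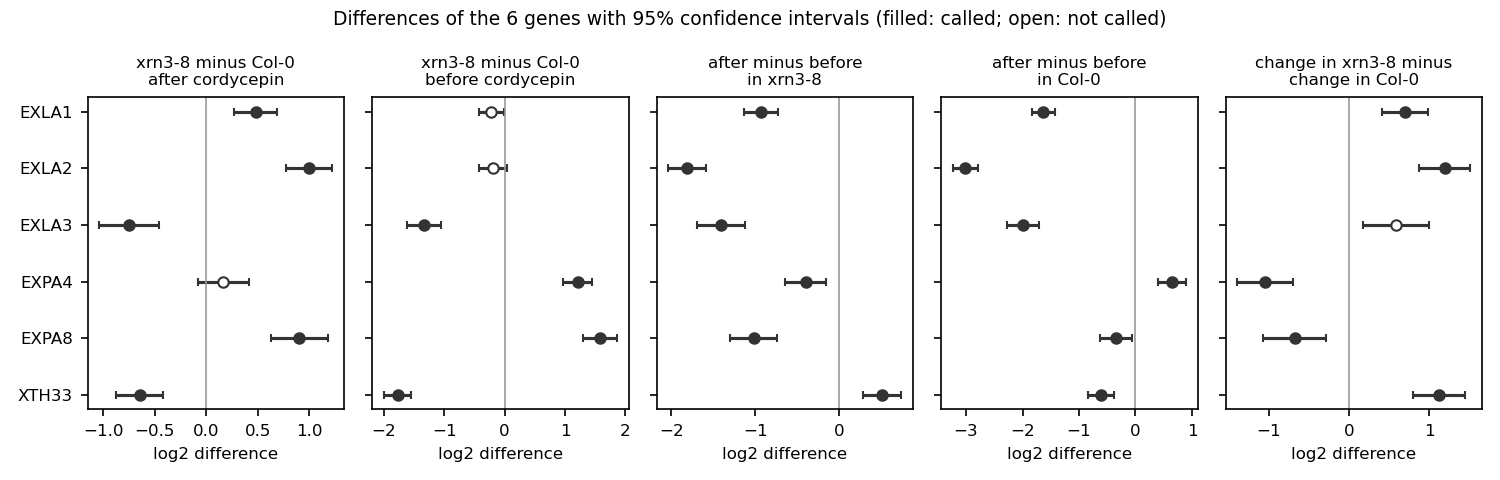
Log2 differences of the 6 genes in the 5 comparisons, with 95% confidence intervals of the fit, each panel on its own horizontal scale; filled points were called and open points were not. In the rightmost panel EXLA1, EXLA2, EXLA3 and XTH33 lie above 0 and EXPA4 and EXPA8 below it, with EXLA3 open.

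Other genes of the wall were taken from lists of expansin, XTH, cellulose, xyloglucan, pectin and proton pump genes. The lists were chosen with earlier results of these data known, so adjusted p-values printed for their genes serve only as descriptions. Of 109 genes besides the 6, 27 had a named single-gene probe set: 13 expansin genes, 9 XTH genes and 5 others. None of the 13 expansin genes fell by as much as the EXLA genes in either genotype. Most of the 13 had low signals before cordycepin in both genotypes, where a fall of that size could hardly show. No property particular to the EXLA genes is therefore read from this. The lowest differences among the 13 were those of EXPA9 in xrn3-8 (-0.41 ± 0.12, called) and EXPA20 in Col-0 (-0.24 ± 0.12, not called). In xrn3-8 after cordycepin, 2 of the 13 were called higher and 1 lower, where 24.5% of all probe sets were higher and 15.9% lower. Those higher were EXPA16 (0.59 ± 0.10) and EXPA21 (0.32 ± 0.09), and neither was called under any of the 3 control-based centrings, which gave 0.10 to 0.32 for EXPA16 and -0.16 to 0.06 for EXPA21. EXPA21 was also not called without replicate 2 of xrn3-8 after cordycepin (0.25). It averaged 3.31 in xrn3-8 after cordycepin and 2.99 before it, near the lower quartile of all probe sets, at which a difference carries little. The 1 lower was EXPA9, whose call was lost without replicate 2 of xrn3-8 after cordycepin (-0.285) or before it (-0.28). Its signals were low too, with means of 3.39 in xrn3-8 after cordycepin and 3.80 before it.

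In Col-0, 3 of the 13 were called higher and 0 lower by limma, with a median of 0.11, where 26.3% of all probe sets were higher and 20.1% lower. At an unadjusted p under 0.05 by limma, 0 were lower too, against 4926 of all 22746 probe sets. Most of the 13 had low signals before cordycepin, where a fall could hardly show, so nothing is read from this count. The 3 called higher were EXPA16 (0.65 ± 0.10, adjusted p = 3.48e-05 by limma, n = 3 per group), EXPA7 (0.47 ± 0.11) and EXPA15 (0.41 ± 0.10). EXPA16 was not called with centring on housekeeping genes (0.24). EXPA7 and EXPA15 were not called under any of the 3 control-based centrings, which gave 0.055 to 0.27 for EXPA7 and -0.005 to 0.21 for EXPA15. EXPA7 averaged 3.62 in Col-0 after cordycepin and 3.15 before it, just above the lower quartile of all probe sets.

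Among the 9 other XTH genes, 1 rose and 2 fell in xrn3-8, where 24.5% of all probe sets were higher and 15.9% lower. In Col-0, 3 rose and 3 fell, where 26.3% of all probe sets were higher and 20.1% lower. XTH16 fell in xrn3-8 (-0.84 ± 0.10) and in Col-0 (-1.23 ± 0.10, adjusted p = 2.33e-08 by limma, n = 3 per group), leaving 56.0% of the signal in xrn3-8 and 42.5% in Col-0. XTH27 fell by 0.63 ± 0.08 in xrn3-8 and by 0.75 ± 0.08 in Col-0, and XTH19 by 0.21 ± 0.07 in Col-0, a call lost without replicate 3 of Col-0 after cordycepin (-0.16) or replicate 2 of Col-0 before it (-0.17). The difference between the changes was not called for XTH16 (0.40 ± 0.14, adjusted p = 0.0868 by limma). It was called with a signal-dependent prior variance and without replicate 1 of Col-0 after cordycepin (0.49). The rise in xrn3-8 was that of XTH29 (0.45 ± 0.15), which was not called under the 3 control-based centrings (-0.04 to 0.18) or after quantile normalization (0.38). It was also not called without replicate 3 of xrn3-8 after cordycepin (0.24) or replicate 1 (0.455) or 3 (0.415) of xrn3-8 before it. XTH29 averaged 3.12 in xrn3-8 after cordycepin and 2.67 before it, near the lower quartile of all probe sets, at which a difference carries little. The rises in Col-0 were those of XTH20 (0.54 ± 0.13), XTH26 (0.32 ± 0.11) and XTH32 (0.24 ± 0.10). None of the 3 was called under the control-based centrings, where XTH20 stood at 0.125 to 0.34 and XTH26 and XTH32 turned direction under 2 of them. The rise of XTH32 in Col-0 was also not called without 8 of the 12 arrays, left out singly (0.145 to 0.28), and that of XTH26 without 3 of them (0.21 to 0.31): replicate 3 of Col-0 after cordycepin and replicates 2 and 3 of Col-0 before it. XTH26 averaged 3.02 in Col-0 after cordycepin and 2.70 before it, again near the lower quartile.

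Of the 5 remaining wall genes, the pectin methylesterase gene PME41 fell by 0.88 ± 0.09 in xrn3-8 and by 0.94 ± 0.09 in Col-0. COB, which encodes a protein needed for oriented cellulose deposition, rose by 0.37 ± 0.09 in xrn3-8, a direction that turned with centring on Bacillus subtilis controls or housekeeping genes. It rose by 0.64 ± 0.09 in Col-0, which was not called with centring on housekeeping genes (0.23). Over the 27 genes, 4 rose and 4 fell in xrn3-8 (24.5% and 15.9% of all probe sets), and 7 rose and 5 fell in Col-0 (26.3% and 20.1% of all probe sets). With centring on Bacillus subtilis controls these counts were 0 and 21 in xrn3-8 and 2 and 12 in Col-0.

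**Figure D3:**
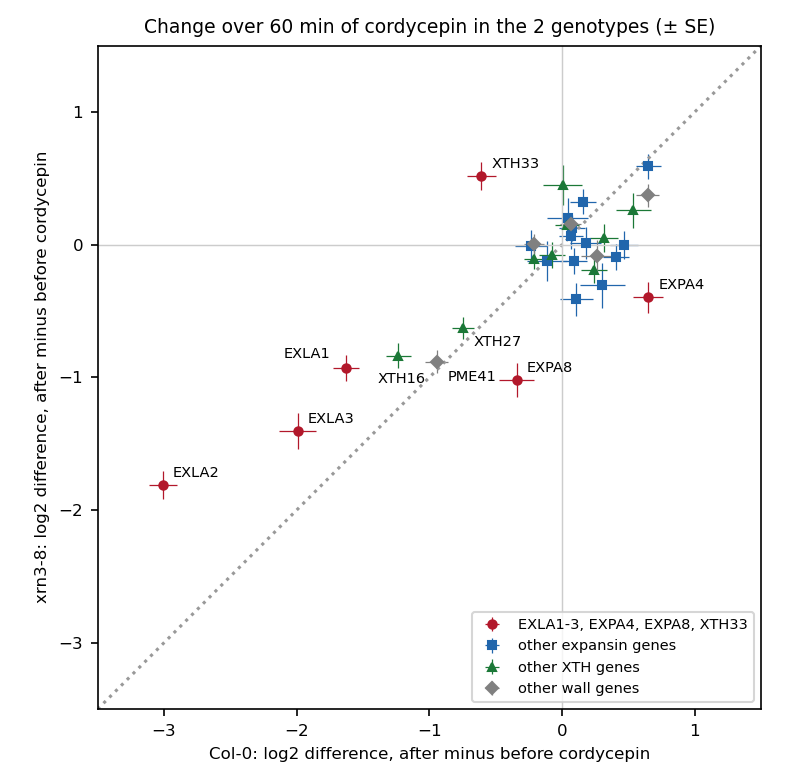
Log2 difference after minus before cordycepin in Col-0 (horizontal) and xrn3-8 (vertical), with SE, for the 6 genes and the 27 other measured wall genes; the dotted line marks equal change. Of the 27, 17 lie within 0.4 of 0 on both axes, and XTH16, XTH27 and PME41 lie in the lower left part between them and the EXLA genes. Several of these 17 genes had signals near the lower quartile of all probe sets, where a fall could hardly show.

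Among these 27 genes, the change over time differed between the genotypes for 1 by limma, EXPA15 (-0.50 ± 0.14, adjusted p = 0.0363, n = 3 per group), which was lower, where 8.05% of all probe sets were called. None of the 27 was called higher. At an unadjusted p under 0.05 by limma, 1 was higher and 6 lower, against 2923 and 1914 of all 22746 probe sets. The call for EXPA15 was lost without 9 of the 12 arrays, left out singly (-0.53 to -0.41), and kept without replicate 3 of xrn3-8 after cordycepin, replicate 1 of Col-0 after it or replicate 2 of Col-0 before it. EXPA15 was not called over time in xrn3-8 (-0.09 ± 0.10). The median over the 27 was -0.003, against 0.02 over all probe sets.

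Between the genotypes, XTH32 had the largest excess in xrn3-8 among the 27. It had log2 signals of 7.30, 7.27 and 7.45 in xrn3-8 after cordycepin, against 6.25, 6.30 and 6.32 in Col-0 after it. Before cordycepin they were 7.67, 7.41 and 7.52 in xrn3-8, against 5.86, 6.13 and 6.16 in Col-0. The xrn3-8 arrays were above the Col-0 arrays at both times, by 1.05 ± 0.10 after cordycepin and 1.48 ± 0.10 before it (adjusted p = 7.52e-09 by limma, n = 3 per group). EXLB1, an expansin-like B gene, was lower in xrn3-8 by a like amount at both times, at -0.97 ± 0.15 after cordycepin and -0.97 ± 0.15 before it, and it was not called over time in either genotype. PME41 was lower as well (-0.39 ± 0.09 after cordycepin and -0.45 ± 0.09 before it), EXPA9 was lower after cordycepin (-0.66 ± 0.12) and so was EXPA15 (-0.28 ± 0.10), and EXPB3 was higher before it (0.53 ± 0.17). After cordycepin, EXPA21 (0.27 ± 0.09), XTH19 (0.25 ± 0.07) and the xyloglucan synthase gene CSLC4 (0.23 ± 0.08) were higher. None of these 3 was called with centring on Bacillus subtilis controls (0.13 to 0.17) or hybridization controls (0.15 to 0.19). The calls of EXPA21 and CSLC4 were lost in the fit of 2 groups, and that of EXPA21 with the replicate number as a block. After cordycepin EXPA21 averaged 3.31 in xrn3-8 and 3.04 in Col-0, near the lower quartile of all probe sets. The signals of EXPA9 after cordycepin were low as well, with means of 3.39 in xrn3-8 and 4.05 in Col-0.

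Some of these calls were lost when 1 array was left out, in some cases with a difference no smaller than in the full fit. That of EXPA21 was lost without replicate 2 of xrn3-8 (0.195) or replicate 1 (0.26) or 2 (0.185) of Col-0 after cordycepin, and that of XTH19 without replicate 3 of Col-0 after it (0.20). The call of CSLC4 was lost without replicate 2 (0.24) or 3 (0.19) of xrn3-8 or replicate 1 (0.24) or 3 (0.19) of Col-0 after cordycepin. That of EXPA15 was lost without replicate 1 (-0.29) or 2 (-0.25) of xrn3-8 or replicate 2 (-0.27) or 3 (-0.20) of Col-0 after it. It was also lost in the fit of 2 groups, with a signal-dependent prior variance, after quantile normalization and with 2 of the 3 control-based centrings (-0.36 to -0.21 over these). The call of EXPB3 was lost without replicate 1 (0.55) or 2 (0.38) of xrn3-8 or replicate 2 (0.42) or 3 (0.535) of Col-0 before cordycepin. In all, 4 of the 27 were higher and 4 lower in xrn3-8 after cordycepin, and 2 higher and 2 lower before it, with medians of -0.04 and 0.09. Of all probe sets, 16.6% were higher and 15.6% lower after cordycepin, and 14.3% were higher and 17.6% lower before it.

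To find the genes with the most similar pattern, log2 signals were centred on each gene's mean and compared over the 12 arrays by the root mean square difference, in log2 units, as a description. For EXLA1, whose own signals deviated from their mean by 0.67, the nearest were AT3G27210 (0.11) and CCL (0.12), a clock-controlled gene known for an unstable transcript. For EXLA2, with an own deviation of 1.26, they were AT1G21830 (0.21) and AT5G40340 (0.22). For EXLA3 (own deviation 1.02) they were AT5G43180 (0.24) and AT3G51110 (0.26). EXPA4 (0.46) was nearest to AT1G20120 (0.15) and AT2G24320 (0.19), and EXPA8 (0.75) to AT1G64500 (0.15) and AT5G02170 (0.21). XTH33 (0.68) was nearest to AT5G43520 (0.21) and the asparaginase gene ASPGB1 (0.23). None of the 6 was among the 2 nearest genes of another. Within the 6, the smallest distances were 0.53 between EXPA4 and EXPA8 and 0.60 between EXLA1 and EXLA2, and the largest was 1.44 between EXLA2 and XTH33.

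The genes next to the 6 in the TAIR10.1 gene order were also looked up, without regard to strand. Those with a named probe set were AT2G39690 beside EXPA4, and AT2G40600 and AT2G40620 on either side of EXPA8. None of the 3 was called between the genotypes. The differences, xrn3-8 minus Col-0, were 0.06 ± 0.11 after cordycepin and -0.003 ± 0.11 before it for AT2G39690, and -0.05 ± 0.08 and -0.13 ± 0.08 for AT2G40600. For AT2G40620 they were 0.10 ± 0.10 after cordycepin and -0.03 ± 0.10 before it. AT2G39690 averaged 3.01 in xrn3-8 after cordycepin, 3.30 in xrn3-8 before it, 2.95 in Col-0 after it and 3.31 in Col-0 before it, a level near the lower quartile, at which a difference carries little. The flanking genes of EXLA1, EXLA2, EXLA3 and XTH33 have no named probe set and were not analysed here.

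Signals of the arrays are on 1 common scale as deposited, so the changes over time were also computed under 4 other scalings. The median of all probe sets over time was 0.09 in xrn3-8 and 0.07 in Col-0 as deposited, -0.39 in xrn3-8 and -0.25 in Col-0 with centring on Bacillus subtilis controls, and -0.34 in both with centring on 4 housekeeping genes. The fall of EXLA2 ranged from -2.30 to -1.86 in xrn3-8 and from -3.42 to -3.04 in Col-0 under the other scalings. Other changes over time moved by over 1.5 times under these scalings. In xrn3-8 the range was -1.42 to -0.97 for EXLA1, -0.88 to -0.34 for EXPA4 and 0.03 to 0.57 for XTH33. In Col-0 the range was 0.235 to 0.81 for EXPA4, -0.755 to -0.24 for EXPA8 and -1.02 to -0.60 for XTH33. The difference between the changes ranged over 1.03 to 1.17 for EXLA2, over 0.96 to 1.17 for XTH33 and over -1.21 to -1.07 for EXPA4. All 6 genes kept their direction in both genotypes under the 4 other scalings.

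**Figure D4:**
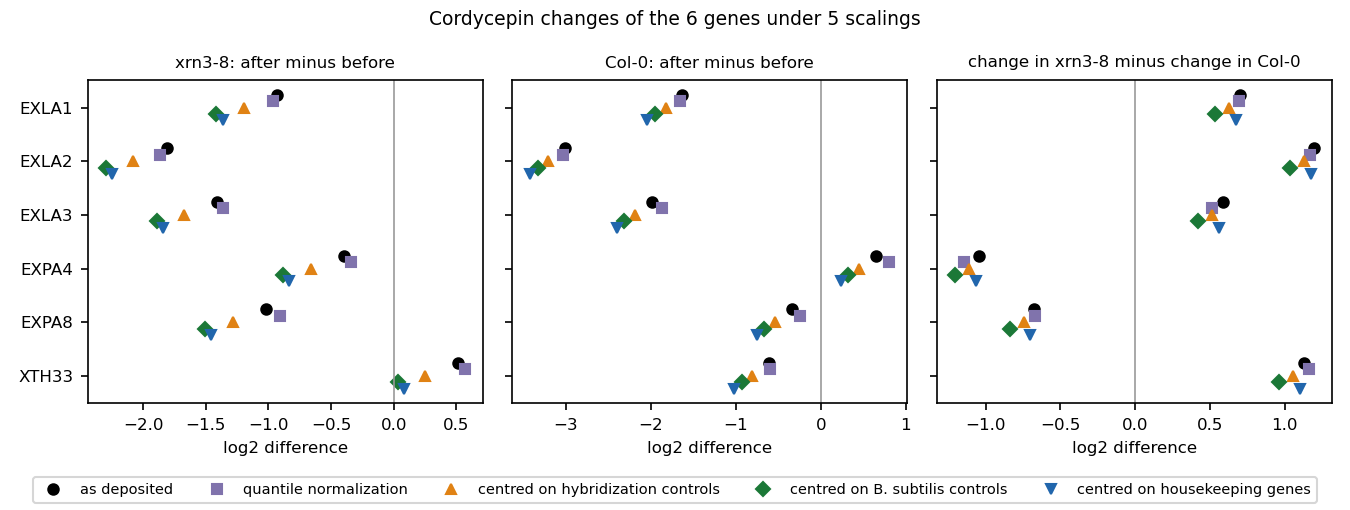
Log2 difference over time in xrn3-8 (left) and Col-0 (middle) and the difference between the changes (right) for the 6 genes under 5 scalings, shown by marker shape. The points for EXLA1, EXLA2, EXLA3 and EXPA8 stay below 0 in the left and middle panels, and the XTH33 points in the left panel reach down to 0.03.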

How the data were processed

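Total RNA of 12 seedling samples was biotin-labelled as cRNA and hybridised to 1-colour Affymetrix arrays, per the labels' protocols. The deposited values are log2 signals with nearly the same distribution on every array. The tools listed by the submitters' processing notes are affy (1.48.0) and limma (3.26.9), but their settings are not given in the sources used here. Precision is limited by how many arrays there are, and detection calls were not used here.

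Of 22810 probe sets, 64 controls were kept out of the tests. The annotation names 1 gene for 13513, several for 503 and lists no gene for 8730; 13436 matched TAIR10.1 by gene identifier. With limma 3.58.1 in R 4.3.3, 4 group means were fitted to all 12 arrays and 5 contrasts tested (two-sided). The fit was tested on simulated data. The 6 genes and the wall lists were chosen with earlier results of these data known. Of the wall lists, the text names up to 3 called rises and 3 called falls per contrast, and further wall genes were named after their values were seen. RCA, LHCB4.2, EXPA7 and EXPA18 serve as tissue markers. Likeness names the 2 nearest single-gene probe sets. Where a gene has several probe sets, that with the highest mean was used. Alternatives were the replicate block, prior variance, weights, filter, scalings, 2-group fits, a threshold of 0.01 and leaving out each array. Replicates are biological per the series' design.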

Additional observations from a re-analysis of the deposited data

Results flagged for a closer look

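The change over cordycepin treatment differed between the genotypes, by the interaction term of the limma fit over all probe sets, for 5 of the 6 genes, where 8.05% of all probe sets were called. On the log2 scale, the change in xrn3-8 less that of Col-0 was 0.70 for EXLA1, 1.20 for EXLA2, -1.04 for EXPA4, -0.68 for EXPA8 and 1.13 for XTH33. These genes were chosen with these values known, and the call for EXPA8 was lost in 8 of the 12 fits that left out 1 array. Among the 27 other measured wall genes, EXPA15 was also called, at -0.50, a call lost in 9 of those 12 fits.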

How the results depend on the processing

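Of 624 recomputed values of the 6 genes, 597 kept their direction and side of the threshold, 21 lost the call, 6 gained it and 0 reversed. Whether the replicate numbers pair the arrays was not settled. Deviations of same-numbered arrays correlated only at -0.09 to 0.18, but 7 of 12 arrays correlated best with their own number among the 3. With the replicate number as a block, more probe sets were called in each of the 5 comparisons. For the difference between the changes, 1940 were called in place of 1830, and between the genotypes before cordycepin 7426 in place of 7264. No call among the 6 genes changed. Of the other wall genes, the block ended the calls of EXPA21 between the genotypes after cordycepin (0.27) and of XTH32 over time in Col-0 (0.24).

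For the 6 genes, centring on Bacillus subtilis controls, hybridization controls or housekeeping genes brought the count of genes called higher over time in xrn3-8 to 0 in place of 1, and centring on housekeeping genes did the same in Col-0. For the difference between the changes, 1 in place of 2 was lower at an adjusted p under 0.01, and 1 to 2 without single arrays. The lower count was that of the 8 fits in which the call of EXPA8 was lost.

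Of the 27 other wall genes, Bacillus subtilis centring called 0 higher and 21 lower over time in xrn3-8 (4 and 4 as deposited) and 2 higher and 12 lower in Col-0 (7 and 5). Hybridization control centring called 0 higher and 8 lower in xrn3-8 and 2 higher in Col-0. Housekeeping centring called 0 higher and 21 lower in xrn3-8 and 0 higher and 16 lower in Col-0. At an adjusted p under 0.01, 2 were higher in xrn3-8 and 3 lower in Col-0. Without dim probe sets (the 40% with the lowest mean), which took out some of the 27 genes, 2 were higher in xrn3-8. In Col-0, 3 were lower in the fit of 2 groups and 3 to 5 without single arrays (3 without replicate 2 of Col-0 before cordycepin).

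Between the genotypes after cordycepin, 1 of the 27 was higher with Bacillus subtilis centring, hybridization control centring or an adjusted p under 0.01, 2 in the fit of 2 groups, and 2 to 5 without single arrays (4 as deposited, 2 without replicate 3 of Col-0 after cordycepin). Before it, 4 were higher with housekeeping centring, 1 at the stricter threshold and 1 to 3 without single arrays (2 as deposited, 1 without replicate 1 or 2 of xrn3-8 or replicate 2 or 3 of Col-0 before cordycepin). For the difference between the changes, 1 was higher with a signal-dependent prior variance and 0 to 1 without single arrays. Lower were 5 with Bacillus subtilis centring, 2 with array weights, without dim probe sets or after quantile normalization, 0 with the other control centrings or the stricter threshold, and 0 to 3 without single arrays (1 as deposited, EXPA15).

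Over time in Col-0, XTH26 (-0.0058) and XTH32 (-0.082) reversed with Bacillus subtilis centring, and EXPA15 (-0.005), XTH26 (-0.095) and XTH32 (-0.17) with housekeeping centring. In xrn3-8, EXPA21 (-0.16), XTH29 (-0.039) and COB (-0.12) reversed with Bacillus subtilis centring, and EXPA21 (-0.11) and COB (-0.065) with housekeeping centring. The cause of these changes was not tested.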
